A study of Mus musculus with 24 samples.

Results

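The 10 transcription factors that set the identity of tissue-resident macrophages (TRMs) were followed across the sorted and cultured cells of brain, liver, peritoneum and lung: Sall1, Mef2c, Nr1h3, Spic, Id3, Gata6, Cebpb, Pparg, Bhlhe41 and Maf. They were chosen by name, for their known roles, with earlier results of these data known, and are 10 of the 45706 genes counted. On GRCm38, in the GENCODE vM21 annotation, the genes lie at chr8:89027235-89044162 (Sall1), chr13:83504034-83667080 (Mef2c), chr2:91184061-91202834 (Nr1h3), chr10:88674772-88685015 (Spic), chr4:136143497-136145755 (Id3), chr18:11052064-11085635 (Gata6), chr2:167688915-167690418 (Cebpb), chr6:115360951-115490399 (Pparg), chr6:145858243-145865558 (Bhlhe41) and chr8:115682942-115707794 (Maf). The question was whether each factor was kept, lost or newly gained after culture, and in which tissue. RNA was sequenced from microglia (MG), Kupffer cells (KCs), peritoneal macrophages (PMs) and alveolar macrophages (AMs) sorted by flow cytometry (ex vivo), and from the MG-, KC-, PM- and AM-like cells (MG-LCs, KC-LCs, PM-LCs, AM-LCs) grown from the same organs for 14 days (in vitro). Each of the 8 groups held 3 libraries.

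All mice were female C57BL/6J, given as 8 to 12 weeks old in the sample labels, with no genetic change or other treatment. The cultures started from unsorted organ suspensions on polyethylenimine-coated plastic. MG-LCs received M-CSF and IL-34, KC-LCs and PM-LCs received M-CSF, and AM-LCs received GM-CSF, each at 20 ng/ml. The first 3 kinds of culture were kept at 3% oxygen in high glucose, and AM-LCs at atmospheric oxygen without glucose. Lung origin, growth factor, oxygen and glucose therefore cannot be told apart in AM-LCs. Cells of 3 mice went into a flask of MG-LCs, PM-LCs or AM-LCs and those of 1 mouse into a flask of KC-LCs. The series describes its replicates as biological, without saying which mice each library came from, so the p-values measure the spread between these libraries.

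Macrophages of different organs share a common program set by the factor PU.1 and add an organ program on top of it. A small set of factors, switched on by signals from the surrounding tissue, opens the enhancers of the organ program: TGF-beta for microglia, signals of the liver sinusoid for Kupffer cells, retinoic acid for peritoneal macrophages and GM-CSF for alveolar macrophages. When macrophages leave their organ these signals end, and many organ-specific genes are known to fall within hours to days.

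Between 29569486 and 47105111 reads per library fell on genes. Levels are given as CPM, read counts relative to library size, with TMM normalization over the 24 libraries. Where a factor had no read, its level in that library was at most 0.0661 to 0.115 CPM (3 reads, counting error only). The markers of the sorted cells went with their labels: summed over lists of 5 or 6 marker genes, the own list stood at 25235 to 26056 CPM in MG, 14188 to 25357 CPM in KCs, 9508 to 10044 CPM in PMs and 22186 to 25094 CPM in AMs. After culture the same sums were 510.1 to 3563 CPM in MG-LCs, 18.3 to 94.3 CPM in KC-LCs, 54.4 to 100.5 CPM in PM-LCs and 2488 to 9562 CPM in AM-LCs, and 6 general macrophage markers together held 2281 to 7994 CPM in every cultured library. The lists of MG and KCs did not follow the labels of the cultures: the KC list was at 215 to 2235 CPM in MG-LCs and 153 to 837 CPM in PM-LCs, mostly from Cd5l, and the MG list at 570.1 to 729 CPM in KC-LCs. Some cultures also held stromal RNA. The sum over 10 fibroblast and mesothelium genes was 31157, 7.49 and 1019 CPM in the 3 MG-LC libraries, 23.0, 2219.7 and 368 CPM in PM-LCs, 17.4, 182 and 1693 CPM in AM-LCs, and at most 29.8 CPM in KC-LCs and 28.4 CPM in sorted cells. In bulk libraries fewer cells of a type and less RNA per cell cannot be told apart.

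In culture 5 factors were lower in the organ they are known for, and 7 factors were gained in organs that had held less of them. A change was called at an adjusted p under 0.05 with a log2 fold change beyond 1.5 in either direction (edgeR's quasi-likelihood test, Benjamini-Hochberg adjustment over all genes tested). Of the 40 pairs of a factor and a tissue, 34 had enough reads to be tested, and of these 6 were higher ex vivo, 12 were higher in vitro and 16 were not called. The untested pairs were Sall1 in KCs, PMs and AMs, Gata6 in MG and KCs, and Spic in MG. In the 9 pairs of a factor with the tissue it is known for (Sall1 and Mef2c with MG, Nr1h3, Spic and Id3 with KCs, Gata6 and Cebpb with PMs, Pparg and Bhlhe41 with AMs), 5 were lower in culture, 4 were not called and 0 were higher. In the 25 other tested pairs, 12 were higher in culture, 1 was lower and 12 were not called. The lower pair was Cebpb in AMs, which held more of it than PMs. Maf, assigned to no tissue, and Bhlhe41 in MG also count among the other pairs, so the split depends on this assignment.

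In MG, 1 of 8 tested factors was higher ex vivo and 4 were higher in vitro, where 13.5% and 16.4% of all genes were called in those directions. In KCs 2 of 8 were higher ex vivo and 2 in vitro, with 14.7% and 7.62% of all genes. In PMs 1 of 9 was higher ex vivo and 4 in vitro, with 7.57% and 10.2% of all genes. In AMs 2 of 9 were higher ex vivo and 2 in vitro, with 8.62% and 12.9% of all genes. The median log2 fold change (ex vivo over in vitro) of the tested factors came to -0.51, -0.28, -0.59 and -1.49 for MG, KCs, PMs and AMs, against -0.03, 0.01, -0.01 and -0.04 over all genes.

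**Figure D1:**
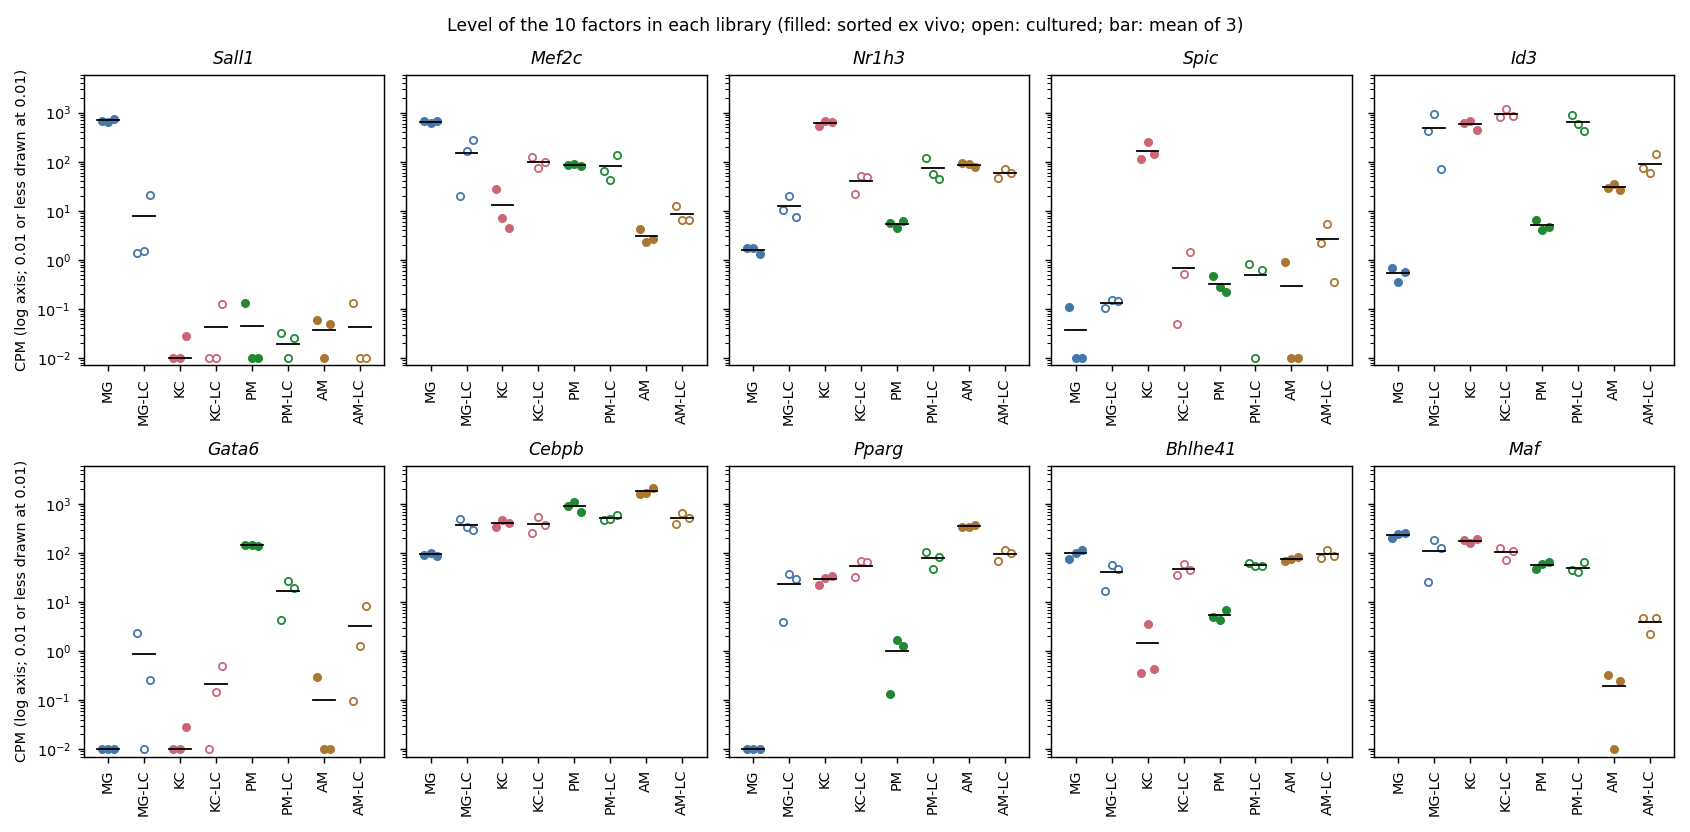
CPM (log axis) of the 10 factors in each of the 24 libraries, with filled points for sorted cells, open points for cultured cells and a bar for the mean of 3; levels of 0.01 CPM or less are drawn at 0.01. Sall1 stands at 656 to 746 CPM in MG and at most 20.7 CPM in MG-LCs, while Id3 and Pparg, which are at or under 0.683 CPM in sorted MG, reach 946 and 36.5 CPM in MG-LCs.

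**Figure D2:**
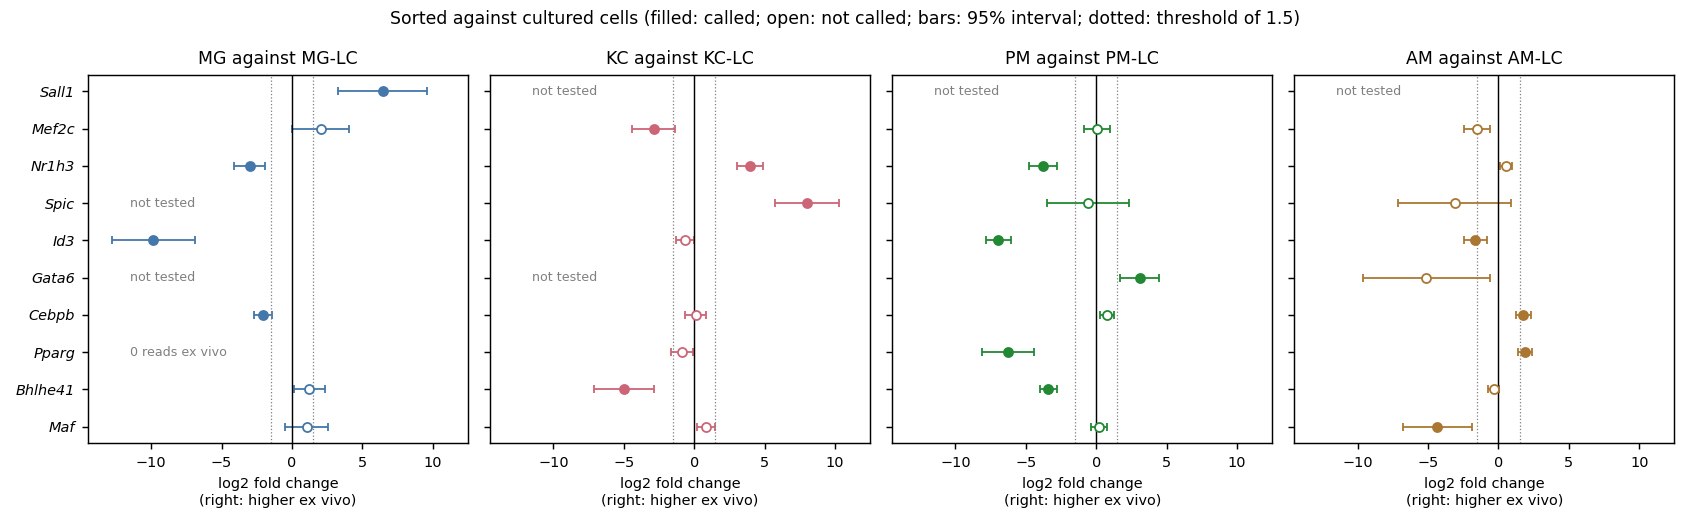
Log2 fold change of ex vivo over in vitro for each factor in each tissue, with 95% intervals; points right of 0 are higher in sorted cells, filled points were called, and dotted lines mark a log2 change of 1.5. Sall1 (MG), Nr1h3 and Spic (KCs), Gata6 (PMs) and Cebpb and Pparg (AMs) are the 6 filled points on the right, and Pparg in MG, with 0 reads ex vivo, is named without a point.

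Sall1 is a zinc-finger repressor that among macrophages marks microglia and holds them in their resting, ramified state. Its level was 681, 656 and 746 CPM in MG and 1.36, 1.52 and 20.7 CPM in MG-LCs. All 3 cultured libraries lay far below the sorted ones, and the third of them held over 10 times the level of the others. The mean of the cultures was 1.13% of the sorted mean, and the log2 fold change was 6.43 (SE 1.31, adjusted p = 0.0105). Without the third culture it was 8.86. In KCs, PMs, AMs and their cultures Sall1 did not exceed 0.134 CPM in any library, at most 5 reads, so it was neither present nor gained there at this depth.

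Mef2c is a MADS-box factor of the microglial program that restrains inflammatory responses, and it is used by other myeloid cells too. It was at 666, 631 and 672 CPM in MG and at 19.6, 166 and 277 CPM in MG-LCs, so that the groups did not overlap. The mean of the cultures was 23.5% of the sorted mean, the spread among them was wide, and the change was not called (log2 fold change 2.05, SE 0.83, adjusted p = 0.0857). The lowest of the cultures was the one with 31157 CPM of stromal markers, and without it the log2 fold change was 1.52 with an adjusted p of 0.00478. In that library Sall1, Bhlhe41, Maf and Pparg were also at their lowest among MG-LCs, and the part of stromal RNA in this was not tested.

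In KCs Mef2c was gained. Sorted KCs held 27.5, 7.24 and 4.51 CPM and KC-LCs 122, 74.4 and 99.1 CPM, a mean 7.53-fold higher in culture (log2 fold change -2.87, SE 0.66, adjusted p = 0.0140). The KC library with the most Mef2c also held the largest sum of 3 monocyte markers, 313 CPM against 106 CPM in each of the others, and without it the log2 fold change was -4.05. In PMs the level did not change detectably, from 85.1 ± 5.03 CPM to 80.9 ± 48.3 CPM (SD, n = 3; 95% interval of the log2 fold change -0.87 to 1.00). AMs had the least of the sorted cells, 3.06 ± 1.00 CPM, and AM-LCs 8.59 ± 3.51 CPM, a log2 fold change of -1.49 that lay just inside the threshold (adjusted p = 0.0177).

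Nr1h3 encodes the oxysterol receptor LXR-alpha, which drives cholesterol efflux and is required for Kupffer cell identity. KCs expressed it at 540.4, 689.5 and 656 CPM and KC-LCs at 22.3, 51.7 and 49.4 CPM. Every culture was more than 10 times below every sorted library, the mean of the cultures was 6.54% of the sorted mean, and the log2 fold change was 3.97 (SE 0.39, adjusted p = 6.75e-04). In the tissues where Nr1h3 was scarce it rose instead. PMs held 5.61, 4.45 and 6.21 CPM and PM-LCs 122, 56.2 and 44.3 CPM, 13.7-fold more (log2 fold change -3.76, SE 0.42, adjusted p = 8.57e-04). MG held 1.76, 1.76 and 1.34 CPM and MG-LCs 10.3, 20.2 and 7.52 CPM, 7.82-fold more (log2 fold change -3.01, SE 0.46, adjusted p = 0.00458). AMs, the sorted population with the next highest level, kept 67.6% of it, from 93.8, 88.3 and 79.1 CPM to 46.6, 72.5 and 57.6 CPM (log2 fold change 0.55, adjusted p = 0.0378, below the fold threshold). After culture the means of PM-LCs, AM-LCs and KC-LCs followed each other with overlapping libraries, and Nr1h3 no longer stood out in the cells from liver.

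Spic, a PU.1-related ETS factor of heme and iron handling, is known from Kupffer cells and red pulp macrophages of the spleen. Its level was 116, 248 and 142 CPM in KCs and 0.0480, 0.523 and 1.44 CPM in KC-LCs, the last from 2, 21 and 57 reads. The cultures kept 0.397% of the sorted level (log2 fold change 8.00, SE 0.99, adjusted p = 0.00160), the smallest share among the 9 pairs of a factor and its own tissue. AM-LCs held 2.16, 5.31 and 0.359 CPM, while 1 AM library held 0.897 CPM and the other two no read (log2 fold change -3.11, SE 1.70, adjusted p = 0.169). In PMs and PM-LCs the levels overlapped, at 0.217 to 0.468 CPM and 0 to 0.808 CPM.

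Id3, a helix-loop-helix protein without a DNA-binding basic region that keeps E proteins from DNA, is needed for Kupffer cell development. It was kept in culture: KCs held 629, 669 and 452 CPM and KC-LCs 804, 1165 and 853 CPM, all 3 above the sorted libraries, with a log2 fold change of -0.66 (SE 0.28, adjusted p = 0.109). The other 3 populations gained it. In MG it was near absent, at 0.683, 0.352 and 0.573 CPM, and MG-LCs held 432, 946 and 69.5 CPM, a mean of 483 CPM and 901-fold more (log2 fold change -9.85, SE 1.21, adjusted p = 0.00244). PMs held 6.45, 4.12 and 4.77 CPM and PM-LCs 895, 599 and 422 CPM, 125-fold more (log2 fold change -6.96, SE 0.39, adjusted p = 4.97e-05). The smallest gain was in AMs, from 28.7, 34.9 and 27.1 CPM to 73.8, 58.6 and 142 CPM (log2 fold change -1.63, SE 0.36, adjusted p = 0.00823), and without the third culture it fell below the fold threshold, at -1.11. That culture held the most stromal RNA of the AM-LCs, 1693 CPM, and the part of it in Id3 was not tested. KC-LCs, PM-LCs and MG-LCs did not separate in Id3, since each overlapped the next.

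The sort gate of KCs required TIM-4, F4/80, CD11b and CD45. Over 8 endothelial marker genes they held 417 to 837 CPM, against 16.5 to 40.9 CPM in KC-LCs. The sum in KCs rested on Stab2, Cdh5 and Pecam1, at means of 301, 228 and 114 CPM, whereas Tie1 had no read, and Kdr (7.51 against 28.1 CPM) and Egfl7 (0.288 against 0.641 CPM) were lower in KCs than in KC-LCs. The part of such RNA in the levels of Nr1h3, Spic and Id3 in KCs was not tested.

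Gata6 is the zinc-finger factor that retinoic acid induces in the peritoneal cavity, where it fixes the program of large peritoneal macrophages. Its level was 146, 147 and 140.0 CPM in PMs and 4.36, 27.1 and 19.7 CPM in PM-LCs. The cultures kept 11.8% of the sorted mean, well apart from it, and the log2 fold change was 3.07 (SE 0.60, adjusted p = 0.00879). Among the PM-LCs, the order of Gata6 was that of the stromal markers, lowest in the library with 23.0 CPM of them and highest in the library with 2219.7 CPM. The log2 fold change was 3.61 without the library with most stromal RNA and 2.63 without the library with least, and in a model of all 24 libraries its adjusted p was 0.0990. In AM-LCs the same order was seen, with Gata6 at 0.0980, 1.30 and 8.36 CPM and stromal sums of 17.4, 182 and 1693 CPM, and in MG-LCs, with Gata6 at 2.36, 0 and 0.257 CPM and stromal sums of 31157, 7.49 and 1019 CPM. Fibroblasts and mesothelium of several organs are known to express Gata6, and the part of stromal RNA in these levels was not tested. Sorted AMs had Gata6 reads in 1 library, at 0.299 CPM, and the rise in AM-LCs was not called (log2 fold change -5.11, SE 1.93, adjusted p = 0.0621).

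Cebpb, a bZIP factor on which large peritoneal and alveolar macrophages depend, was expressed in every library at 88.7 CPM or more. Here it was highest in AMs, not in PMs: 1626, 1704 and 2085 CPM in AMs, 912, 1100.1 and 697 CPM in PMs, 344, 473 and 408 CPM in KCs and 92.1, 99.4 and 88.7 CPM in MG, with no overlap between neighbours. In AM-LCs it was 391, 659 and 517 CPM, 28.9% of the sorted level (log2 fold change 1.78, SE 0.21, adjusted p = 7.33e-04). PM-LCs, at 476, 503 and 605 CPM, kept 58.4% (log2 fold change 0.77, SE 0.22, adjusted p = 0.0346, below the fold threshold). In KCs no change was detected (95% interval of the log2 fold change -0.63 to 0.84). MG gained it, from the levels above to 491, 336 and 291 CPM in MG-LCs, 3.99-fold more (log2 fold change -2.05, SE 0.26, adjusted p = 0.00272). The 4 cultured means lay between 372 and 528 CPM and all neighbours overlapped. An antisense gene, Tmem189, shares 20.7% of the exon bases of Cebpb, and since the strand setting of the counting is not given, its reads cannot be told apart there.

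Pparg encodes the lipid-sensing nuclear receptor PPAR-gamma, which GM-CSF induces in alveolar macrophages and which they need to clear surfactant. It was at 339.9, 333 and 374 CPM in AMs and 67.9, 116 and 102 CPM in AM-LCs. The cultures, grown with GM-CSF, kept 27.3% of the sorted level, and the log2 fold change was 1.86 (SE 0.21, adjusted p = 5.66e-04). MG had no Pparg read in any library, and MG-LCs held 3.93, 36.5 and 29.9 CPM, at least 321-fold more (floor of 3 reads per library, adjusted p = 0.00739). PMs held 0.134, 1.66 and 1.25 CPM and PM-LCs 104, 47.5 and 84.1 CPM, 77.5-fold more (log2 fold change -6.25, SE 0.79, adjusted p = 0.00137). In KCs the levels were 22.7 to 34.8 CPM before and 32.4 to 69.0 CPM after culture (log2 fold change -0.89, SE 0.34, adjusted p = 0.0820). All 4 kinds of culture thus expressed Pparg, with overlapping libraries from AM-LCs down to MG-LCs.

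Bhlhe41, a helix-loop-helix repressor that with Bhlhe40 maintains the self-renewal and identity of alveolar macrophages, was the factor of the lung that culture kept. AMs held 69.3, 74.2 and 82.8 CPM and AM-LCs 79.6, 117 and 86.3 CPM (log2 fold change -0.33, SE 0.16, 95% interval -0.72 to 0.06, adjusted p = 0.134). It was as much a factor of MG, with 77.0, 102 and 116 CPM, which overlapped the AM libraries. MG-LCs held 17.2, 57.5 and 47.2 CPM, 41.3% of the sorted level (log2 fold change 1.23, SE 0.44, adjusted p = 0.0603). Where it was low it rose: from 0.353, 3.56 and 0.428 CPM in KCs to 35.2, 61.1 and 44.1 CPM in KC-LCs, 32.4-fold more (log2 fold change -4.99, SE 0.92, adjusted p = 0.00629), and from 5.05, 4.34 and 6.89 CPM in PMs to 62.5, 55.6 and 53.9 CPM in PM-LCs, 10.6-fold more (log2 fold change -3.40, SE 0.25, adjusted p = 1.45e-04). The 1 KC library with 3.56 CPM widened the spread, and without it the log2 fold change in KCs was -6.86. A transcript annotated on the other strand, Gm43909, which was not analysed here, covers 19.05% of the exon bases of Bhlhe41.

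Maf, a large bZIP factor that restrains self-renewal and is known to be low in alveolar macrophages, belonged to no single organ. It stood at 207, 242 and 252 CPM in MG, 183, 163 and 193 CPM in KCs, 47.9, 59.7 and 65.8 CPM in PMs and 0.329, 0 and 0.249 CPM in AMs. The MG, KC and PM cultures held 25.7 to 181, 71.5 to 127 and 40.2 to 65.1 CPM, and none of these 3 changes was called, with log2 fold changes of 1.03 (SE 0.63, adjusted p = 0.219), 0.84 (SE 0.26, adjusted p = 0.0428) and 0.20 (SE 0.24, adjusted p = 0.581). AM-LCs gained it, at 4.83, 2.21 and 4.70 CPM, 20.3-fold above AMs (log2 fold change -4.36, SE 1.04, adjusted p = 0.0116). The gain left AM-LCs far below the other cultures, and without 1 of the AM libraries the adjusted p of this change was 0.0521.

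The start regions of Spic and Nr1h3, lost in KC-LCs, and of Pparg and Bhlhe41, gained in several cultures, are shown to give the sequence context of these changes. The sequences run 5′ to 3′ along the strand of the gene and hold no base that GENCODE marks as an exon. They lie before starts listed in RefSeq (GRCm38.p6), which listed 8 of the 10 factors. Those of Spic, Nr1h3 and Pparg lie inside the GENCODE extent of the gene given above, downstream of its first base. That of Bhlhe41 lies before the first base. Capitals mark 3 short motifs searched on both strands: GAGGAA, the core of the PU.1 site, ACGTG, the core shared by hypoxia-inducible and Bhlhe40/41-type helix-loop-helix factors, and GGCGCC, a GC-rich SMAD motif. The windows shown are chr10:88683024-88683273, minus strand, for Spic, chr2:91195152-91195366, minus strand, for Nr1h3, chr6:115362099-115362291, plus strand, for the middle of 3 listed Pparg starts, and chr6:145865559-145865670, minus strand, for Bhlhe41.
Spic: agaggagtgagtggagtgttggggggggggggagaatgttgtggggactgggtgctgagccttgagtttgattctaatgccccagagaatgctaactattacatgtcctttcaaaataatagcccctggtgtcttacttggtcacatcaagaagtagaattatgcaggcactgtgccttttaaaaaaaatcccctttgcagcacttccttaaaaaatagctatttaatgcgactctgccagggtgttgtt
Nr1h3: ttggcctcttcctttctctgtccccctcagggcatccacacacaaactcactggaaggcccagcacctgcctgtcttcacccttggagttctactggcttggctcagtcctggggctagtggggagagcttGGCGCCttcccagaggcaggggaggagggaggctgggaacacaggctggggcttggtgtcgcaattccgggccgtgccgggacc
Pparg: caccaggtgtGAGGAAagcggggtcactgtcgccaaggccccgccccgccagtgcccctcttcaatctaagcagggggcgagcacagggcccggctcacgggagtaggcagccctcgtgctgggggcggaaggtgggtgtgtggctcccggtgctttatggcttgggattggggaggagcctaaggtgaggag
Bhlhe41: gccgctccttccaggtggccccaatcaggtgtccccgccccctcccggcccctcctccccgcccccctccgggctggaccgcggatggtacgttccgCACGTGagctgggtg

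In the whole 250-base windows before the RefSeq starts, Spic held none of the 3 motifs, Nr1h3 held 1 GGCGCC, this Pparg window 1 GAGGAA, and Bhlhe41 2 ACGTG that overlap as a palindrome. The motif GAGGAA was found in 23.3%, ACGTG in 16.6% and GGCGCC in 9.59% of 32851 such windows of all genes. The share of G and C was 44.8% in the printed window of Spic, 63.3% in that of Nr1h3, 66.8% in that of Pparg and 75.0% in that of Bhlhe41. A match is a sequence of letters and not evidence that a factor binds there.

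Before culture the factors differed between the organs. They were chosen for known roles in particular organs, with earlier results of these data known, so calls in those organs come with the choice. Among the sorted cells, each population against the mean of the other 3, MG had 4 of 10 factors called higher (Sall1, Mef2c, Bhlhe41 and Maf), KCs 5 (Nr1h3, Spic, Id3, Pparg and Maf), PMs 3 (Mef2c, Gata6 and Maf) and AMs 4 (Nr1h3, Cebpb, Pparg and Bhlhe41), where 14.1%, 14.6%, 10.6% and 10.2% of all genes were called higher. A factor can pass here without being highest, since a group near 0 lowers the log2 mean of the others. Maf in PMs, at 57.8 CPM, lay below MG and KCs (233 and 180 CPM) and above AMs (0.192 CPM). Pparg in KCs and Nr1h3 in AMs, at 29.5 and 87.0 CPM, lay below AMs (349 CPM) and KCs (629 CPM). Mef2c and Maf in PMs lost their call in 3 and 2 of 18 alternatives. Where all 4 groups lay over the floor of 3 reads per library, the lowest adjusted p-values were those of Nr1h3 in KCs (log2 difference 6.12, SE 0.13, adjusted p = 1.01e-10) and Id3 in KCs (log2 difference 7.08, SE 0.18, adjusted p = 4.25e-10). Sall1 in MG, Spic in KCs, Gata6 in PMs and Pparg in KCs and AMs were compared with at least 1 group at or under that floor and are given by their levels, with adjusted p-values of 5.69e-10, 4.07e-07, 9.84e-08, 8.07e-05 and 1.68e-07.

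After culture few of these differences were called. Libraries of a group spread more widely in MG-LCs, PM-LCs and AM-LCs than in the sorted cells. A pair that was not called may therefore still differ. Among the cultured cells 1 pair was called higher and 3 lower of the 40 tested, where 0.419% of all genes were called in MG-LCs, 0.101% in KC-LCs, 0.432% in PM-LCs and 7.26% in AM-LCs in either direction. At the looser threshold of an unadjusted p under 0.05 there were 16 pairs. The share of all genes at that threshold is not given here, so the 16 cannot be set beside the shares above. The pair called higher was Sall1 in MG-LCs, with the levels above against at most 5 reads in any library of the others (adjusted p = 0.0457). The alternatives gave adjusted p-values between 0.0140 and 0.126 for it, past the threshold in 5 of the 18 that gave a value. The pairs called lower were all in AM-LCs: Mef2c (log2 difference -3.62, SE 0.74, adjusted p = 0.0107), Id3 (-2.82, SE 0.68, adjusted p = 0.0227) and Maf (-4.38, SE 0.60, adjusted p = 0.00153). Maf was called in every alternative, Mef2c was lost without AM-LC replicate 2 or 3 (adjusted p = 0.0697 and 0.0531), and Id3 was lost with a replicate block (0.0556) and without AM-LC replicate 1 or 2 (0.0967 and 0.114). Gata6 in PM-LCs was higher than in the other cultures by a log2 difference of 4.27 (SE 1.28) that did not pass (adjusted p = 0.155). In the same test Maf in MG-LCs (2.01, adjusted p = 0.0536) and KC-LCs (1.88, adjusted p = 0.106) did not pass either. Nor did Nr1h3 in MG-LCs (-2.15, adjusted p = 0.0529). No difference was called for Nr1h3, Spic and Id3 in KC-LCs (log2 differences 0.11, 0.29 and 1.62 with adjusted p of 0.944, 0.951 and 0.191), or for Pparg in AM-LCs (1.05, adjusted p = 0.178, 95% interval -0.01 to 2.11). Bhlhe41 in AM-LCs passed the adjusted p but not the fold threshold (1.00, SE 0.28, adjusted p = 0.0400). Its AM-LC libraries, at 79.6 CPM or more, lay above every other culture, at 62.5 CPM or less. Over the settings its adjusted p was 0.00872 to 0.245.

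The distance between organs narrowed for all 10 factors. They were chosen for known roles in particular organs, so wide ratios among sorted cells come with the choice. The same ratio over all genes was not computed, so the narrowing is not shown to be particular to these factors. From the highest to the lowest group mean, with groups under 3 reads per library set to that floor, the ratio went from 388 among sorted cells to 5.85 among cultures for Nr1h3, from 1088 to 10.3 for Id3, from 68.0 to 2.33 for Bhlhe41 and from 19.3 to 1.42 for Cebpb. Pparg went from 4782 to 4.06 and Spic from 2311 to 19.8, with 1 sorted group at the floor each. Mef2c went from 215 to 17.9 and Maf from 1212 to 28.3, AM-LCs being the lowest culture in both. The widest ratios left were those of Sall1, from 8642 to 106 with 3 groups at the floor in each state, and Gata6, from 1980 to 78.2 with 2 sorted groups at it.

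**Figure D3:**
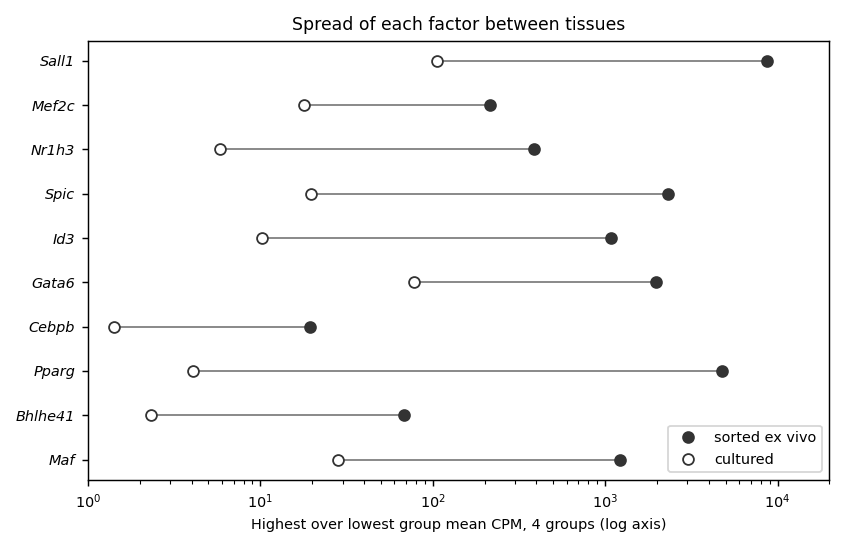
Ratio of the highest to the lowest group mean CPM (log axis) over the 4 sorted groups (filled) and the 4 cultured groups (open) for each factor. The open point lies left of the filled one for all 10, down to 1.42 for Cebpb and 2.33 for Bhlhe41. Other genes are not shown.

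The size of the culture change differed between organs for many factors. Tested as the change in 1 population minus the mean change of the other 3, 13 of 40 pairs were called more towards ex vivo and 11 more towards in vitro, where the share of all genes called in either direction was 13.2%, 10.8%, 8.57% and 11.4% for MG, KCs, PMs and AMs. Nr1h3 in KCs was among the clearest, by 5.99 on the log2 scale (SE 0.49, adjusted p = 3.15e-07), and so was Id3 in MG, by -6.71 (SE 0.76, adjusted p = 2.67e-06).

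Compared per kilobase of exon, the factors ranked differently in each organ. In MG Sall1 stood at 132 CPM per kilobase and Mef2c at 41.8, and in MG-LCs they stood at 1.49 and 9.81 while Id3 was at 269 and Cebpb at 248. In KCs Id3, Cebpb and Nr1h3 were at 326, 272 and 250 CPM per kilobase and Spic at 43.9, and in KC-LCs Id3 was at 525 and Nr1h3 at 16.3. In PMs Cebpb was at 600.5 CPM per kilobase and Gata6 at 22.2, and in PM-LCs at 351 and 2.62, with Id3 at 357. In AMs Cebpb was at 1200.1 CPM per kilobase, Pparg at 118 and Bhlhe41 at 11.2, and in AM-LCs at 347, 32.2 and 14.1.

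Some close relatives moved with their factor and some against it. Of 26 paralogues, 5 of 15 tested in MG were higher ex vivo and 4 rose in culture, 2 and 1 of 15 in KCs, 1 and 3 of 16 in PMs, and 0 and 5 of 16 in AMs. The shares of all genes called in these directions were 13.5% and 16.4% in MG, 14.7% and 7.62% in KCs, 7.57% and 10.2% in PMs, and 8.62% and 12.9% in AMs. The counts do not pair each relative with its factor, and in KCs they lay near these shares. Sall3, the closest relative of Sall1 in pattern, was at 159, 171 and 180.2 CPM in MG and 0.668, 2.94 and 12.1 CPM in MG-LCs (log2 fold change 4.99, SE 1.03, adjusted p = 0.0109). Id2, an inhibitor of the same class as Id3, rose in MG, from 36.0 ± 6.64 to 797 ± 369 CPM, in PMs, from 253 ± 66.0 to 1426 ± 411 CPM, and in AMs, from 210.5 ± 24.1 to 674 ± 50.7 CPM (SD, n = 3; adjusted p = 0.00150, 0.00126 and 1.29e-04). Bhlhe40 was nearly absent from MG, at 0.215 to 0.514 CPM, and stood at 46.2 to 156 CPM in MG-LCs (log2 fold change -8.35, SE 0.69, adjusted p = 9.32e-04). Bhlhe41 was lower in MG-LCs than in MG, though not called. Cebpa and Ppard were higher ex vivo in MG, where Cebpb and Pparg were gained. Their means went from 168 to 53.4 CPM and from 8.23 to 2.49 CPM (edgeR's adjusted p = 0.0430 and 0.00679). The partner of the nuclear receptors, Rxra, went down with Nr1h3 in KCs, from 417 ± 166 to 58.4 ± 31.6 CPM, and with Pparg in AMs, from 401 ± 54.1 to 71.4 ± 10.5 CPM (adjusted p = 0.00686 and 1.29e-04). It was 1 of 6 partner genes called in each of these tissues, Rxrg being the 1 called in MG and in PMs, all 4 higher ex vivo. Nr1h2, which encodes the sister receptor LXR-beta, was between 62.0 and 153 CPM in all 24 libraries and was called in no tissue.

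**Figure D4:**
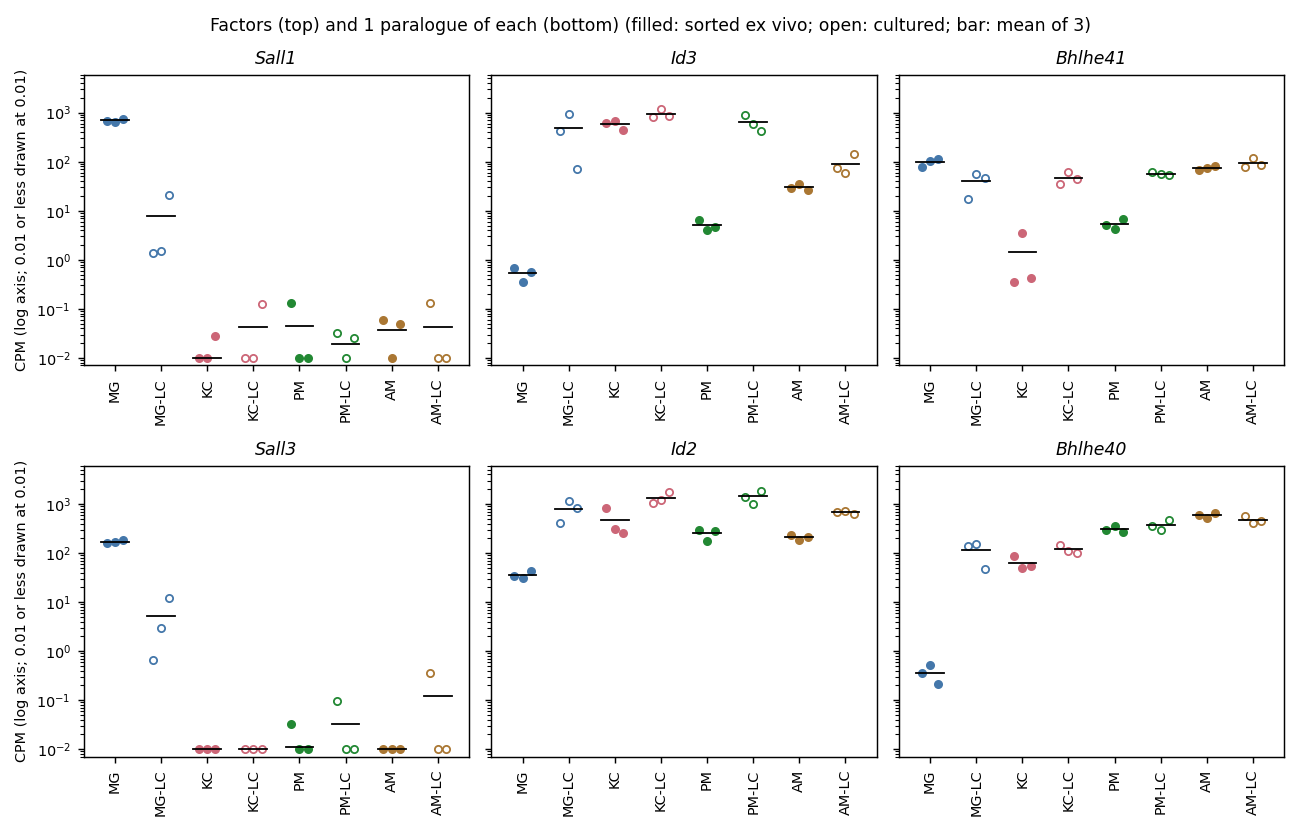
CPM (log axis) of Sall1, Id3 and Bhlhe41 (top) and of 1 relative of each, Sall3, Id2 and Bhlhe40 (bottom), in each library, filled for sorted and open for cultured cells, with a bar for the mean of 3. Sall3 follows Sall1 down in MG-LCs, and Bhlhe40 goes from at most 0.514 CPM in MG to at least 46.2 CPM in MG-LCs.

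Genes known to be driven by the factors were described by a list of 18. Of those tested, 5 of 16 in MG were higher ex vivo and 5 rose in culture, 6 and 2 of 15 in KCs, 5 and 4 of 18 in PMs, and 5 and 5 of 15 in AMs, beside 13.5% and 16.4%, 14.7% and 7.62%, 7.57% and 10.2%, and 8.62% and 12.9% of all genes. All 4 targets listed for Gata6 were higher in sorted PMs, Ltbp1, a TGF-beta binding protein, at 1849.7 ± 281 against 10.5 ± 3.13 CPM and Alox15, a lipoxygenase, at 15094 ± 1079.6 against 34.2 ± 29.6 CPM (adjusted p = 2.63e-05 and 0.00230). Of these targets, Aspa was also higher ex vivo in KCs and Tgfb2 in AMs (log2 fold changes 5.56 and 4.32, edgeR's adjusted p = 0.00874 and 0.0217). Gata6 was at most 0.299 CPM in those sorted cells. Aspa in MG and Alox15 in AMs were higher in culture. All 3 listed for Sall1 were higher in sorted MG, such as the purinergic receptor P2ry12 at 5516 ± 159 against 2.49, 11.7 and 18.9 CPM (adjusted p = 0.00188). P2ry12 was called higher ex vivo in KCs, PMs and AMs as well (log2 fold changes 4.74, 3.11 and 1.92), where Sall1 was at 5 reads or fewer in each library. Both targets of Spic, the iron exporter Slc40a1 and the adhesion molecule Vcam1, were higher in sorted KCs, at 5889 ± 3941 against 573 ± 227 CPM and 681 ± 349.5 against 0.672 ± 1.14 CPM (adjusted p = 0.00867 and 0.00470). In PMs, where no change of Spic was called, both were higher in culture. Slc40a1 went from 0.131 ± 0.173 to 289 ± 132 CPM and Vcam1 from 0.227 ± 0.218 to 16.2 ± 21.5 CPM (adjusted p = 2.50e-04 and 0.0204). Vcam1 was also higher in AM-LCs (adjusted p = 0.0223). It stood at 2.55, 41.0 and 4.96 CPM in PM-LCs and 1.11, 6.95 and 234 CPM in AM-LCs, in the order of the stromal sums. The part of stromal RNA in these levels was not tested. Of the 5 targets of LXR, Abca1 and Mylip were higher in sorted KCs, the tissue that lost Nr1h3, and Abcg1 was higher in PM-LCs, where Nr1h3 was gained, at 200.2 ± 68.3 against 34.2 ± 4.16 CPM (adjusted p = 9.90e-04). The direction did not follow Nr1h3 in every tissue: in MG, where Nr1h3 was gained, Mylip and Lpcat3 were lower in culture (log2 fold changes 2.86 and 1.84, adjusted p = 0.0113 and 0.00165), and in AMs, where no change of Nr1h3 was called, Abcg1 and Mylip were lower in culture (2.09 and 2.33, adjusted p = 1.49e-04 and 5.57e-04). All 4 targets of Pparg were higher in MG-LCs, which gained Pparg, such as the fatty acid carrier Fabp4, from at most 0.0661 CPM in MG to 104, 150.1 and 465 CPM. In AMs, which lost part of Pparg, Fabp4 and Cd36 were higher in culture all the same, from 128 ± 22.5 to 518 ± 213 CPM and from 436 ± 38.6 to 2364 ± 1003 CPM (adjusted p = 0.00195 and 6.93e-04), while Angptl4 was lower.

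The genes whose pattern was most like that of a factor were ranked by the correlation of log2 CPM over the 24 libraries, which share tissue and culture state. Nearest to Sall1 was Sall3 (r = 0.99), to Spic Sectm1a (r = 0.92), to Nr1h3 Gbp8 (r = 0.92), to Id3 Clec12a (r = 0.94) and to Mef2c Eng (r = 0.91). Nearest to Pparg was Anxa5 (r = 0.97), to Bhlhe41 Lonrf3 (r = 0.94), to Cebpb Shisa5 (r = 0.95) and to Maf Fyb (r = 0.97). The nearest to Gata6 were Gm16587 (r = 0.92) and 1010001N08Rik (r = 0.92), and the latter lies on the opposite strand of Gata6 and shares 93 of its exon bases.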

How the data were processed

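The authors deposited a table of read counts per gene for the 24 libraries, and every column was matched to a sample by its name. RNA was extracted from sorted or cultured cells, amplified from full-length cDNA, fragmented and sequenced as single reads. The submitters' processing notes name Trimmomatic 0.36 and STAR 2.5.2b. They list a human build, whereas the study's methods name a mouse build and the table holds mouse gene identifiers. The counting tool's strand setting is not given in the sources used here.

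Counts were tested in R 4.3.3 with edgeR 4.0.16 (TMM normalization, quasi-likelihood test, filterByExpr with a minimum count of 10), with Benjamini-Hochberg adjustment over all genes tested: 14416, 13629, 13581 and 13196 for MG, KCs, PMs and AMs in the ex vivo against in vitro tests, 15732 among sorted cells, 14813 among cultures and 17408 for the difference in culture change. Calls needed an adjusted p under 0.05 and an absolute log2 fold change over 1.5. Tests were two-sided, intervals are 95%, and the scripts were tested on simulated data. CPM were scaled by TMM over all 24 libraries. Ratios against groups without reads used a floor of 3 reads per library, and contrasts with groups at or under that floor are given as levels with an adjusted p. Gene similarity used log2 CPM with a prior count of 2. Alternatives were limma 3.58.1 (voom), DESeq2 1.42.0, RLE scaling, other filters (none, or 1 CPM in 3 libraries), all 24 libraries in 1 model, a replicate block, no fold threshold and leaving out each library. Leaving out the 3 libraries with most stromal RNA was added after seeing the data.

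The 10 factors and all gene lists were chosen with earlier results of these data known. The text names the 10 factors in every group and the gene or genes most like each factor. Of the relatives, partners and targets that were called in the tissue of their factor or had the highest level, it names only some. The others enter only the counts. Bhlhe40, Id2 in AMs, Nr1h2, Cebpa and Ppard in MG, the targets of Pparg in MG, the targets of LXR outside KCs, the targets of Spic and Gata6 and P2ry12 in other tissues, Cd5l and the endothelial genes, and the factors in the closing section, were named after their values were seen. A result on 1 relative is not reported here.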

Additional observations from a re-analysis of the deposited data

Results flagged for a closer look

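The change from sorted to cultured cells differed between the organs for 24 pairs of a factor and a population. Each was tested as the change in that population (ex vivo minus in vitro, log2) minus the mean change of the other 3, and passed an adjusted p under 0.05 with a difference over 1.5 (edgeR's quasi-likelihood test). Where a group lay at or under 3 reads per library the adjusted p stands in place of the difference.

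In MG the change was more towards ex vivo for Mef2c by 3.53, for Bhlhe41 by 4.19 and for Maf by 2.19, and for Sall1 with an adjusted p of 0.0278. It was more towards in vitro for Nr1h3 (-3.21), Id3 (-6.71) and Cebpb (-2.88), and for Pparg with an adjusted p of 3.03e-05.

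In KCs it was more towards ex vivo for Nr1h3 by 5.99 and for Id3 by 5.43, and for Spic and Pparg with adjusted p-values of 5.72e-04 and 0.00245. Id3 and Pparg were not lower in KC-LCs than in KCs. Mef2c (-3.14) and Bhlhe41 (-4.19) were more towards in vitro.

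In PMs Gata6 was more towards ex vivo with an adjusted p of 0.00706, and Nr1h3 (-4.28), Id3 (-2.94) and Bhlhe41 (-2.05) were more towards in vitro. Bhlhe41 lost its call whenever 1 PM or PM-LC library was left out (adjusted p = 0.0579 to 0.122) and without the 3 libraries with most stromal RNA (0.0567), and Id3 lost it with limma-voom (0.0749).

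In AMs Id3 (4.22), Cebpb (2.17) and Bhlhe41 (2.05) were more towards ex vivo, as was Pparg with an adjusted p of 1.19e-05, while Maf (-5.04) was more towards in vitro, as was Spic with an adjusted p of 0.0340. Id3 was called higher in AM-LCs than in AMs, and Bhlhe41 was not lower in AM-LCs. Bhlhe41 lost its call whenever 1 AM or AM-LC library was left out (adjusted p = 0.0532 to 0.0934). Spic, without a read in 2 of the 3 AM libraries, was past the threshold in 7 of 11 alternatives (adjusted p = 0.00399 to 0.117), and lost its call without AM replicate 2 or 3 or AM-LC replicate 1 or 2.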

How the results depend on the processing

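With the fold threshold kept, 15 of the 18 called changes between sorted and cultured cells were called in every alternative, 3 were lost in some (Gata6 in PMs, Id3 and Maf in AMs) and 0 changed sign. Of the 16 not called, 5 were called in some alternative (Mef2c and Bhlhe41 in MG, Mef2c, Spic and Gata6 in AMs), and with no fold threshold 4 were called (Mef2c and Nr1h3 in AMs, Cebpb in PMs, Maf in KCs). With all 24 libraries in 1 model, 2 factors were higher ex vivo in MG and 0 in PMs. Without the threshold 2 were higher ex vivo in PMs. With DESeq2 4 were higher in vitro in AMs. Leaving out single libraries gave 1 to 2 higher ex vivo in MG and 1 to 4 higher in vitro in AMs, with 1 without AM replicate 3 and 4 without AM replicate 1.

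The calls among cultures depended most on the setting. The number higher was 0 with limma-voom, 5 with DESeq2, 2 without the filter on low counts, 2 with no fold threshold, 3 without the 3 libraries with most stromal RNA, and 0 to 4 when single libraries were left out. The number lower was 6 with DESeq2 and 1 to 4 when single libraries were left out, with 1 without AM-LC replicate 2. Uncalled values near 0 changed sign: Spic in PMs was 0.59 with limma-voom and 0.093 with the replicate block, and Spic in KC-LCs against other cultures was -0.0665 with limma-voom and -0.11 without the stromal libraries. Leaving out single libraries moved Cebpb in KCs from -0.15 to 0.38, Mef2c in PMs from -0.20 to 0.69, and, against other cultures, Nr1h3 in KC-LCs from -0.088 to 0.41 and Spic in KC-LCs from -0.94 to 0.84. The cause was not tested.

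Sorted and cultured samples with the same replicate number did not deviate together (r from -0.104 to 0.0558). This cannot exclude a shared mouse or day, which the labels do not give. Cultures of different organs with the same number had r from -0.385 to 0.288. With the replicate block the counts between sorted and cultured cells stayed at 1 and 4 in MG, 2 and 2 in KCs, 1 and 4 in PMs and 2 and 2 in AMs, and among cultures they were 0 higher and 2 lower. With 3 libraries a group, factors at a few reads could not be followed at this depth.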

Other observations

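Of 15 other transcription factors known from macrophages, in MG 1 was higher ex vivo and 5 rose in culture, 1 and 3 of 14 tested in KCs, 3 and 3 in PMs, and 1 and 0 in AMs, beside 13.5% and 16.4%, 14.7% and 7.62%, 7.57% and 10.2%, and 8.62% and 12.9% of all genes. Egr2, an immediate-early zinc-finger factor, was gained in 3 populations, from 4.68 ± 1.24 to 30.6 ± 10.4 CPM in MG, from 5.86 ± 0.502 to 50.2 ± 53.4 CPM in KCs and from 2.71 ± 2.26 to 182 ± 153 CPM in PMs (SD, n = 3; edgeR's adjusted p = 0.00262, 0.0165 and 0.00295). Smad3, which carries the TGF-beta signal, was lower in culture in MG, from 138 ± 9.12 to 23.4 ± 14.9 CPM, and in PMs, from 69.3 ± 16.4 to 7.68 ± 3.07 CPM (adjusted p = 0.0135 and 8.24e-04). Rarb, a retinoic acid receptor, was at 20.8, 27.6 and 22.3 CPM in PMs and at 0.549, 0 and 2.51 CPM in PM-LCs (adjusted p = 0.0257). Spi1, which encodes PU.1, was called in no population, with group means of 267 to 762 CPM, and in AM-LCs it was 376 ± 50.4 CPM against 762 ± 56.5 CPM in AMs (log2 fold change 1.02, adjusted p = 7.10e-04, below the fold threshold).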
